A study of Mus musculus with 8 samples.

Results

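Axon guidance ligands and receptors are the 74 genes whose symbols name an ephrin, an Eph receptor, a semaphorin, a plexin, a neuropilin, a Slit, a Robo, a netrin, a netrin receptor, a netrin-G or one of its ligands, a Slitrk, Nogo or the Nogo receptor. They were found by symbol among the 10601 transcripts of the series that carry one, out of 28662 transcripts measured, and all 74 were among the 10588 genes tested, which are transcripts of 10535 different symbols. The prefix Lrrc4, meant for the netrin-G ligands, also takes in 7 genes named Lrrc40, Lrrc41, Lrrc42, Lrrc45, Lrrc47, Lrrc48 and Lrrc49, which are not netrin-G ligands. They are counted with the members and described apart, so that 67 members are guidance genes by name. RNA came from the right cortex of C57BL/6 mice of 2 groups of 4. Bigenic mice carried Camk2a-tTa, in which the Camk2α promoter drives the tetracycline transactivator, and a tetracycline-responsive ΔNLS-hTDP-43, human TDP-43 with a mutated nuclear localization signal. The promoter is active mainly in excitatory forebrain neurons, so other cells of the cortex were measured without being the main site of the transgene. Nontransgenic littermates carried neither transgene. Both groups received doxycycline, which keeps the transgene off, until 28 days of age, and were dissected 10 days later.

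Guidance cues steer growing axons by attraction or repulsion, and most of them stay expressed in the adult cortex, where they act on dendritic spines, synapses and the limits on axon regrowth. Ephrins are bound to the membrane and signal through Eph receptor tyrosine kinases. Semaphorins signal through plexins, with neuropilins as co-receptors for the secreted class, Slits through Robos, and netrins through Dcc and the Unc5 receptors. Netrin-Gs are anchored on axons and bind postsynaptic partners of the Lrrc4 family, Slitrks organise synapses, and Nogo, the product of Rtn4, inhibits the growth of axons.

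Values are the deposited normalized counts, reads per transcript scaled by a factor per mouse, and are always listed in the order bg254, bg277, bg283 and bg286 for the bigenic and nt242, nt250, nt255 and nt278 for the nontransgenic mice. These names are the column headings, which give the group but no replicate number of the labels. Log2 fold changes are differences of group means of log2(normalized count + 1), bigenic minus nontransgenic. Linear folds and percentages of a mean are ratios of group means of the counts, so their log2 can differ from the log2 fold change. A gene was called when the limma p-value, adjusted by Benjamini-Hochberg over all genes tested, was below 0.05. The estimated depth was 10.6 M to 31.9 M reads on genes, lowest in bg277, and the lowest value of any member in any mouse was 82 normalized counts, above the 1.94 to 6.20 that 3 reads are worth. The study's methods describe the same sex makeup in both groups. Xist was high and Y-linked transcripts were near 0 in 1 of 4 bigenic (bg254) and 2 of 4 nontransgenic libraries (nt242 and nt250), so the groups were not balanced in the libraries. The library of bg277 lay outside the range of the other 3 bigenic mice in 55 of the 74 members, against 25 to 42 members for the other bigenic mice, and values without it are given where they change a call.

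Of the 74 members, 30 were called, 13 higher and 17 lower in the bigenic mice. This share of 40.5% is close to that of all genes tested, of which 35.9% were called, 20.5% higher and 15.4% lower. Among the 67 guidance genes by name, 11 were higher and 15 lower. The values of the groups did not overlap in 28 members (37.8%), 10 with the bigenic mice higher and 18 lower, against 39.0% of all genes tested, 22.3% higher and 16.7% lower. At an unadjusted limma p below 0.05 there were 37 members, 14 higher and 23 lower, against 46.7% of all genes tested. In bulk cortex, fewer cells that express a gene and less RNA per cell cannot be told apart, in any member. The median log2 fold change was -0.06 over the members and 0.03 over all genes tested. Ligands and receptors were both split, with 4 ligands higher and 5 lower of 27, and 6 receptors higher and 8 lower of 33. Of the 30 calls, 16 were made again with each of the 8 mice left out in turn, and 0 changed sign. With the Xist split as a covariate 11 members were higher and 14 lower (33.8%, against 30.3% of all genes). Without bg277 15 were higher and 20 lower (47.3% against 45.5%), and without nt250, as without nt255, 6 and 12 (24.3% against 25.2% and 25.1%). In the 3 bigenic and 2 nontransgenic libraries with Y-linked transcripts alone 3 were higher and 2 lower (6.76% against 6.38%). The 16 lasting calls include the largest changes in each direction, Robo3, Sema3a, Rtn4 and Plxnc1 among the falls and Epha8, Efna3, Sema6c and Sema7a among the rises. In 10 members the threshold of 10 RPM, reads per gene scaled to a fixed total, was not reached in every mouse. Epha8 missed it in all nontransgenic mice and 1 bigenic mouse, Sema6c in 3 nontransgenic mice and Efnb1 in 1. Robo3 missed it in 1 bigenic mouse and Lrrc48 in 3. Passing in 1 mouse was enough to be tested, so of these genes only Epha8 was tested through bigenic mice alone.

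**Figure D1:**
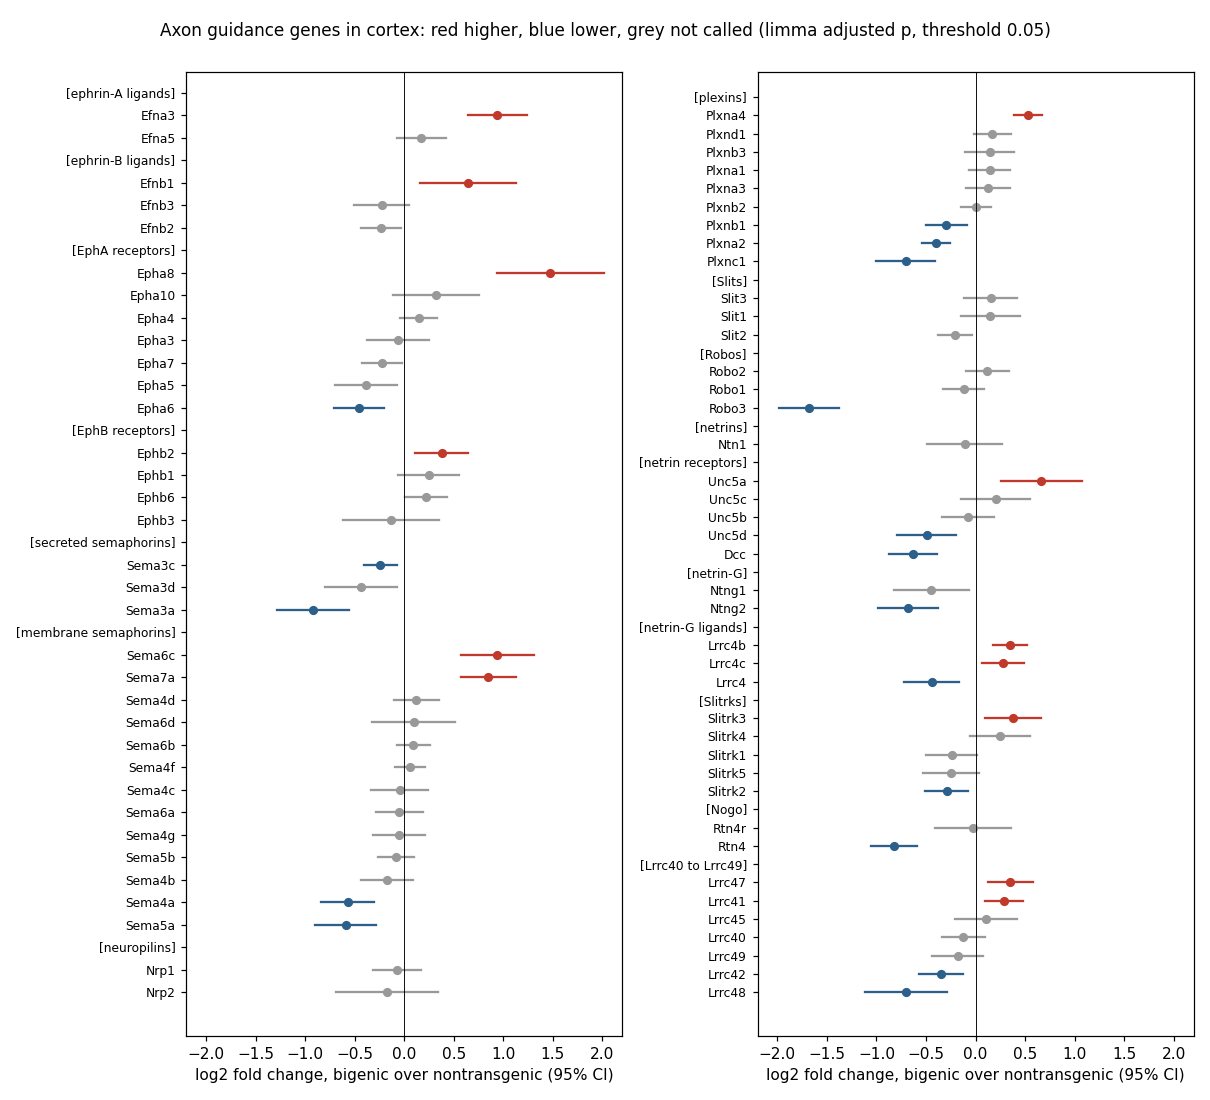
Log2 fold changes (x axis, bigenic over nontransgenic) of the 74 members by family, with 95% confidence intervals from limma. Red marks the 13 members called higher, blue the 17 called lower and grey those not called, with Epha8 at 1.48 and Robo3 at -1.68 at the ends.

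Among the ephrins, 2 of 5 were higher and 0 lower by limma, with 1, Efnb2, lower at an unadjusted p below 0.05. Efna3 (uc008pyq.1, chromosome 3, 89117821 to 89126887, mm9), a ligand of EphA receptors held in the membrane by a lipid anchor, had 693, 813, 528 and 574 normalized counts in the bigenic and 324, 308, 348 and 360 in the nontransgenic mice. Every bigenic mouse lay above every nontransgenic mouse. The means were 652 ± 128 and 335 ± 23.4 (SD, n = 4 each), a 1.95-fold rise with a log2 fold change of 0.94 (SE 0.13, limma adjusted p = 0.000748). Exons of Efna3 overlap the annotated gene Gm15998, from which its reads cannot be separated here. Efnb1, a transmembrane ligand of EphB receptors, had 316, 527, 327 and 417 in the bigenic and 218, 246, 193 and 365 in the nontransgenic mice. The groups overlapped through nt278, and the log2 fold change of 0.64 (SE 0.22) had a limma adjusted p of 0.0431. This call was lost without bg277, bg286, nt242, nt250 or nt255, with adjusted p up to 0.121. Efnb1 lies on the X chromosome, and with the Xist covariate its adjusted p was 0.0791. The other ephrins were not called, with log2 fold changes of 0.17 for Efna5, -0.24 for Efnb2 and -0.23 for Efnb3. Efnb3 was called lower without bg254, at -0.35 and an adjusted p of 0.0146.

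Of 11 Eph receptors 2 were higher and 1 lower. Epha8 (uc008vis.1, chromosome 4, 136485334 to 136512731), a receptor tyrosine kinase for ephrin-A ligands, showed the largest rise of all members. It was the least abundant of them in the nontransgenic cortex, at 88, 131, 82 and 88 normalized counts, and had 341, 366, 192 and 213 in the bigenic mice. The groups did not overlap, and bg254 and bg277 lay above bg283 and bg286. Mean values of 278 ± 88.2 and 97.2 ± 22.7 gave a 2.86-fold rise. The log2 fold change was 1.48 (SE 0.24, limma adjusted p = 0.00157). Ephb2, which binds ephrin-B ligands at excitatory synapses, had 375, 472, 464 and 501 in the bigenic and 385, 301, 376 and 331 in the nontransgenic mice. Only bg254 fell within the nontransgenic range. Its log2 fold change was 0.38 (SE 0.12, limma adjusted p = 0.0341), and it was not called without bg283, bg286, nt250, nt255 or nt278, with adjusted p up to 0.103, or with the Xist covariate, at 0.0617. Epha6, another ephrin-A receptor, moved the other way, with 666, 505, 541 and 616 in the bigenic and 802, 863, 681 and 849 in the nontransgenic mice. The highest bigenic mouse lay just under the lowest nontransgenic mouse, and Epha6 fell by 0.46 on the log2 scale (SE 0.11, limma adjusted p = 0.0114). Its exons overlap the annotated Gm9017.

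The remaining Eph receptors were not called. Epha4, by far the most abundant Eph receptor per length and one that binds ephrins of both classes, had a log2 fold change of 0.15 with a 95% interval of -0.04 to 0.33. Epha5 and Epha7, at -0.38 and -0.23, did not overlap between the groups but missed the threshold, with limma adjusted p of 0.0567 and 0.0734. Without bg277 Epha5 was called lower, at -0.24 and an adjusted p of 0.0335. Values for Epha3, Epha10, Ephb1, Ephb3 and Ephb6 lay between -0.13 and 0.32, and Epha10 was called higher without nt278, at 0.50 and 0.0406. Without bg277 Ephb3 was at -0.33 and Ephb1 at 0.11, neither called.

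Sema3a, Sema3c and Sema3d were the secreted semaphorins among the members, which do not cover the whole class, and of these 2 were lower and 0 higher by limma, also at an unadjusted p below 0.05, where Sema3d was lower as well. Sema3a (uc008wmc.2, chromosome 5, 13125593 to 13602565), a repellent that binds neuropilin 1, had 624, 480, 766 and 741 normalized counts in the bigenic and 1440, 1199, 1306 and 979 in the nontransgenic mice. All 4 bigenic mice lay below the lowest nontransgenic mouse. The mean fell from 1231 ± 195 to 653 ± 131, a log2 fold change of -0.92 (SE 0.16, limma adjusted p = 0.00225). Sema3c was lower by less, at -0.24 with an adjusted p of 0.0323, and was called without bg277 but with none of the other mice left out. Sema3d, at -0.43, missed the threshold with an adjusted p of 0.0622, and was called lower without bg254, at -0.59 and 0.00603.

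Among the 13 membrane semaphorins 2 were higher and 2 lower. Sema7a (uc009pvy.1, chromosome 9, 57787920 to 57810671), a lipid-anchored semaphorin that promotes axon growth through integrins and also binds plexin C1, had 3708, 5710, 4001 and 4342 in the bigenic and 2276, 2421, 2628 and 2406 in the nontransgenic mice. The groups were well apart, with bg277 the highest. Sema7a rose 1.83-fold, from 2433 ± 146 to 4440.2 ± 885, a log2 fold change of 0.85 (SE 0.13, limma adjusted p = 0.000865). Sema6c, a transmembrane semaphorin, had 319, 525, 316 and 377 in the bigenic and 194, 184, 183 and 224 in the nontransgenic mice. Here too bg277 was the highest and the groups did not overlap, with a 1.96-fold rise and a log2 fold change of 0.94 (SE 0.17, limma adjusted p = 0.0022).

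Sema5a, a transmembrane semaphorin with thrombospondin repeats, had 929, 654, 982 and 1028 in the bigenic and 1400, 1432, 1282 and 1232 in the nontransgenic mice. The bigenic mice all lay lower, bg277 lowest, and Sema5a fell by 0.59 on the log2 scale (SE 0.14, limma adjusted p = 0.00841). Sema4a had 482, 730, 581 and 592 in the bigenic and 857, 870, 960 and 828 in the nontransgenic mice. Again without overlap, Sema4a fell by 0.57 (SE 0.12, limma adjusted p = 0.0053), although bg277 was now the highest bigenic mouse. The other 9, in the classes 4, 5 and 6, were not called and lay between -0.17 for Sema4b and 0.12 for Sema4d. One of them, Sema6d, was called higher without bg277, at 0.31 with an adjusted p of 0.012.

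Plexins, the receptors of the semaphorins, split within 1 class. Plxna2 had 3681, 3731, 3842 and 3604 in the bigenic and 5001, 4751, 4901 and 4960 in the nontransgenic mice. Plxna4 had 5768, 5944, 6112 and 6208 in the bigenic and 4346, 4237, 4023 and 4036 in the nontransgenic mice. In both the spread within each group was small beside the gap between them. Plxna2 fell by 0.40 on the log2 scale (SE 0.06, limma adjusted p = 0.00112), from 4903 ± 109 to 3714 ± 99.8. Plxna4 rose 1.44-fold, from 4160.5 ± 158 to 6008 ± 194, a log2 fold change of 0.53 (SE 0.06, limma adjusted p = 0.000321). Both are receptors of class A, which signals for secreted and class 6 semaphorins, and Plxna1 and Plxna3 of the same class were not called, at 0.14 and 0.12. Exons of Plxna4 overlap the annotated Gm13851.

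Plxnc1, the plexin that binds Sema7a, had 946, 1481, 1169 and 1089 in the bigenic and 2034, 1668, 1797 and 2064 in the nontransgenic mice. It fell by 0.70 on the log2 scale without overlap (SE 0.13, limma adjusted p = 0.00326). As group means, this ligand was higher and this receptor lower in the bigenic mice. Within the bigenic group both were lowest in bg254 and highest in bg277. Plxnb1, a receptor of Sema4d, was lower at -0.30 with an adjusted p of 0.0323, and not called without nt250, nt255 or nt278, with adjusted p up to 0.0941, and its exons overlap the annotated Gm7628. Plxnb2, at 0.00, had a 95% interval of -0.15 to 0.15. Plxnb3 and Plxnd1 were not called, at 0.14 and 0.17, and Plxnd1 was called higher without bg254, at 0.23 and 0.0468. Neither neuropilin was called by limma, also at an unadjusted p below 0.05, with -0.07 for Nrp1 (95% interval -0.32 to 0.17) and -0.18 for Nrp2 (-0.69 to 0.34), which was at 0.05 without bg277.

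**Figure D2:**
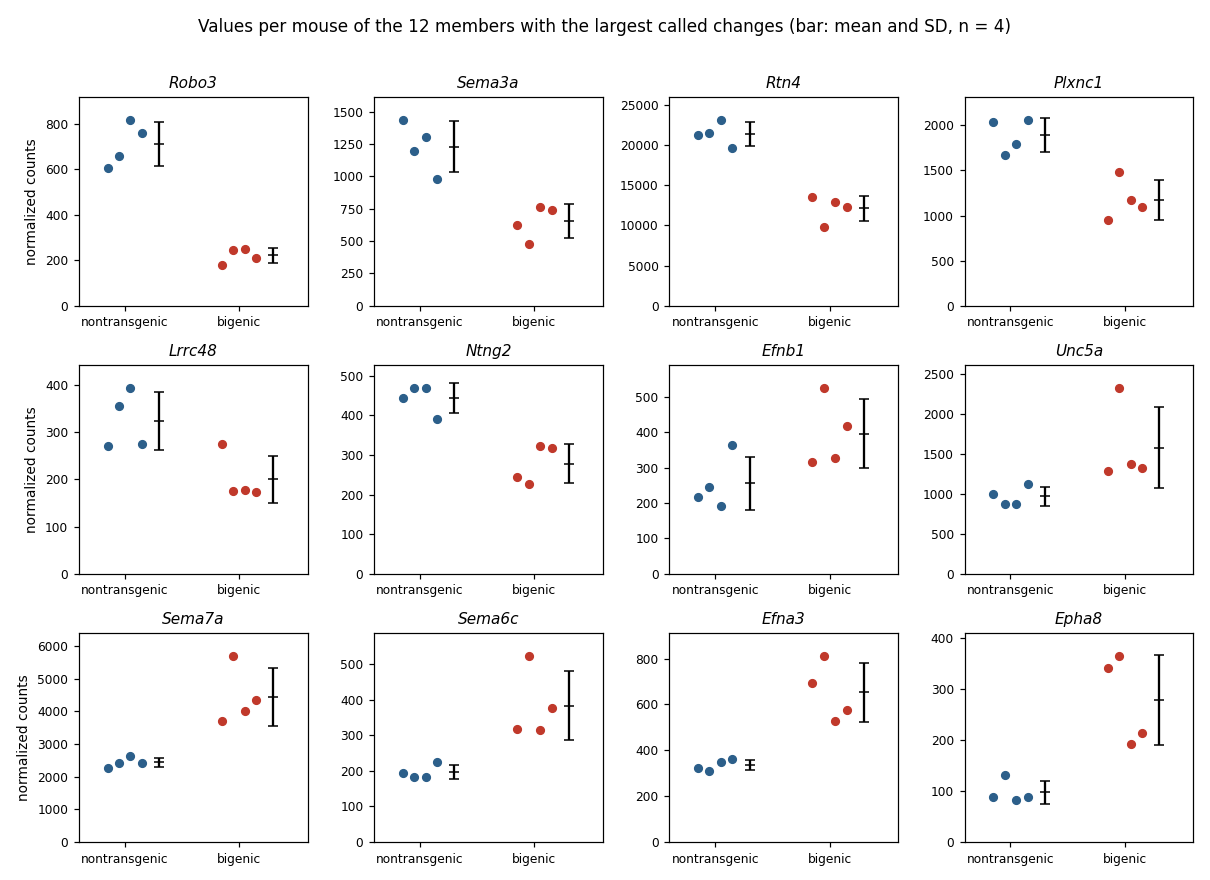
Normalized counts (y axis, linear from 0) in each mouse for the 6 called members with the largest falls and the 6 with the largest rises, nontransgenic in blue and bigenic in red, with the group mean and SD (n = 4) in black. The groups overlap in Lrrc48 and Efnb1 and are apart in the other 10, with Robo3 at 181 to 249 against 608 to 820.

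The largest fall of all members was in Robo3 (uc012gqz.1, chromosome 9, 37223254 to 37240760), a divergent Robo known for letting commissural axons cross the midline. It had 181, 246, 249 and 210 normalized counts in the bigenic and 608, 661, 820 and 759 in the nontransgenic mice. The highest bigenic mouse was far below the lowest nontransgenic mouse. The bigenic mean of 222 ± 32.3 was 31.1% of the nontransgenic mean of 712 ± 95.4, a log2 fold change of -1.68 (SE 0.13, limma adjusted p = 3.47e-05). The other Robos and the Slits that bind them were not called by limma, and of these only Slit2 had an unadjusted p below 0.05. Robo2, the most abundant Robo, was at 0.12 (95% interval -0.09 to 0.33) and Robo1 at -0.12. Slit2, at -0.20, did not overlap between the groups and missed the threshold with an adjusted p of 0.0602, but was called lower without bg277, at -0.25 and 0.0102. Slit1 and Slit3 were at 0.15 and 0.15.

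The only netrin tested, Ntn1, was low, at 194 to 274 normalized counts in the nontransgenic mice, and was not called at -0.11. Its receptors differed in direction. Dcc, the receptor through which netrin 1 attracts axons, had 531, 399, 547 and 482 in the bigenic and 816, 776, 719 and 708 in the nontransgenic mice. All bigenic mice were lower, and Dcc fell by 0.63 on the log2 scale (SE 0.11, limma adjusted p = 0.0021). The Unc5 receptors mediate repulsion by netrins. Unc5d had 1760, 1092, 1570 and 1444 in the bigenic and 2200, 1925, 1940 and 2092 in the nontransgenic mice. It fell by 0.49 (SE 0.13, limma adjusted p = 0.0174) without overlap, a call that was lost without nt242, at an adjusted p of 0.0551. Unc5a had 1286, 2327, 1371 and 1320 in the bigenic and 1000, 872, 877 and 1119 in the nontransgenic mice. It was higher in every bigenic mouse, with bg277 far above the others. The log2 fold change was 0.66 (SE 0.18, limma adjusted p = 0.0183) with all mice and 0.46 without bg277 (adjusted p = 0.00201). Without nt250 or nt255 it was not called, with adjusted p of 0.057 and 0.0559. Its exons overlap Hk3, a hexokinase gene. Unc5b and Unc5c were not called, at -0.07 and 0.20, and Unc5c was called higher without bg277, at 0.37 and 0.00201.

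Netrin-Gs, which despite the name do not bind netrin receptors, pair with set ligands on the postsynaptic side. Ntng2, whose ligand is Lrrc4, had 245, 227, 323 and 318 in the bigenic and 443, 470, 470 and 390 in the nontransgenic mice. The groups were apart and Ntng2 fell by 0.68 on the log2 scale (SE 0.14, limma adjusted p = 0.00396). Its exons overlap the annotated 6530402F18Rik on the same strand. Lrrc4 had 1532, 1475, 2039 and 2087 in the bigenic and 2534, 2225, 2486 and 2337 in the nontransgenic mice. It fell as well, by 0.44 (SE 0.12, limma adjusted p = 0.0201), and was not called without bg254, nt242 or nt255, with adjusted p up to 0.0601. Ntng1, whose ligand is Lrrc4c, was at -0.45 and missed the threshold at an adjusted p of 0.0626. Ntng1 was called lower without bg277, at -0.27 and 0.0452, and without bg283, at -0.55 and 0.0348.

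Lrrc4c had 4993, 4930, 4179 and 4411 in the bigenic and 4112, 3819, 4083 and 3313 in the nontransgenic mice. Its log2 fold change of 0.27 (SE 0.09, limma adjusted p = 0.0465) was called with all mice, without bg277 and without bg283, and in none of the other 6 fits that left out a mouse, where the adjusted p reached 0.108. Lrrc4b, a ligand of receptor tyrosine phosphatases, had 2338, 2759, 2467 and 2710 in the bigenic and 2037, 2067, 1942 and 2000 in the nontransgenic mice. It was higher in every bigenic mouse, with a log2 fold change of 0.35 (SE 0.08, limma adjusted p = 0.00632). The 3 relatives thus moved in both directions.

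Of the 5 Slitrks, transmembrane proteins that bind receptor tyrosine phosphatases across the synapse, 1 was higher and 1 lower. Slitrk3, which organises inhibitory synapses, had 2896, 2107, 2851 and 2957 in the bigenic and 2399, 2061, 2033 and 1800 in the nontransgenic mice. The library of bg277 lay within the nontransgenic range while the other 3 bigenic mice lay above it. Its log2 fold change was 0.38 (SE 0.13, limma adjusted p = 0.0419), and 0.49 without bg277 at an adjusted p of 0.00105. The call was lost without bg254, bg283, bg286, nt250, nt255 or nt278, with adjusted p up to 0.103, and also after rescaling to the same total, after quantile normalization and with no filter on low values. Slitrk2, on the X chromosome, was lower at -0.29 with overlap (adjusted p = 0.0403) and was not called without bg254, bg286, nt242, nt250 or nt255, with adjusted p up to 0.114. Slitrk1, Slitrk4 and Slitrk5 were not called, at -0.24, 0.25 and -0.25. Slitrk4 was called higher without bg277, at 0.38 and 0.00569, and Slitrk1 lower without nt278, at -0.34 and 0.0334.

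Rtn4 (uc007ihk.2, chromosome 11, 29592947 to 29644331), which encodes the Nogo proteins, had 13510, 9838, 12858 and 12270 normalized counts in the bigenic and 21273, 21479, 23181 and 19599 in the nontransgenic mice. All bigenic mice lay far below the nontransgenic mice, bg277 lowest. The bigenic mean of 12119 ± 1603 was 56.7% of the nontransgenic 21383 ± 1465, a log2 fold change of -0.83 (SE 0.10, limma adjusted p = 0.000371). The table holds 1 transcript for Rtn4, so its isoforms cannot be separated, and its exons overlap those of Eml6 on the opposite strand, in counts not stated to use strand. Rtn4r, the Nogo receptor, was at -0.03 with a 95% interval of -0.41 to 0.36, and at 0.15 without bg277.

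Among the 7 genes from Lrrc40 to Lrrc49, 2 were higher and 2 lower. Lrrc48 had 274, 176, 177 and 172 in the bigenic and 270, 354, 394 and 274 in the nontransgenic mice, with overlap through bg254. It fell by 0.70 on the log2 scale (SE 0.19, limma adjusted p = 0.0157), and was not called without nt250 or nt255, at 0.0518 and 0.0531. Lrrc47 had 1495, 1911, 1460 and 1497 in the bigenic and 1275, 1141, 1222 and 1320 in the nontransgenic mice. It was higher in every bigenic mouse, at 0.35 (limma adjusted p = 0.0214), and was not called without nt250 or nt255, at 0.0701 and 0.0591. Lrrc41 had 537, 639, 547 and 610 in the bigenic and 488, 479, 487 and 450 in the nontransgenic mice. It too was higher without overlap, at 0.29 (limma adjusted p = 0.0249), and was not called without bg286, nt242, nt250, nt255 or nt278, with adjusted p up to 0.0673. Lrrc42 was lower at -0.35 (adjusted p = 0.0216), and not called without nt242, nt250 or nt278, with adjusted p up to 0.0571. Exons of Lrrc41 overlap Rad54l and those of Lrrc47 the annotated 1190007F08Rik. Lrrc40, Lrrc45 and Lrrc49 were not called, at -0.13, 0.10 and -0.18.

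**Figure D3:**
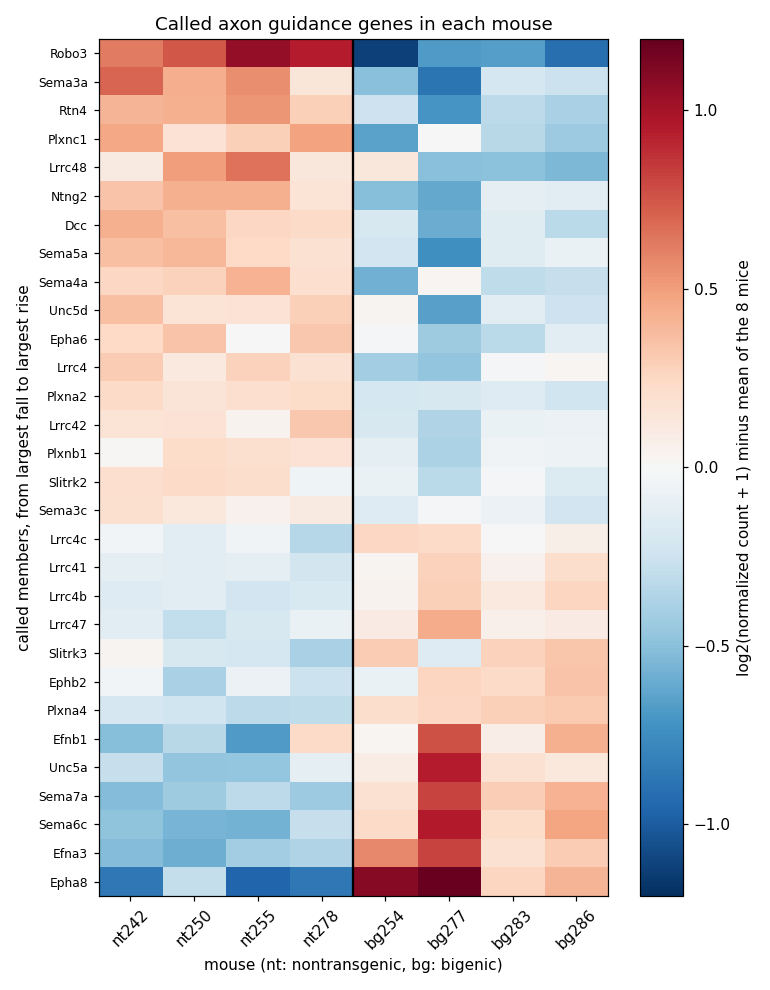
Log2(normalized count + 1) of the 30 called members (rows, from the largest fall to the largest rise) in each of the 8 mice (columns), minus the mean of the 8 mice on a color scale with higher values in red. The column of bg277 stands out from the other bigenic columns in rows such as Unc5a, where it had 2327 normalized counts against 1286 to 1371 in the other 3.

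Levels were compared between genes after division by the length of the merged exons. These exons are those of all annotated transcripts of a gene, while the counts are per transcript. The level of a gene with many annotated exons can therefore be understated, and the order is approximate. In the nontransgenic cortex Rtn4 was highest, at 3059 ± 209.5 normalized counts per kb (SD, n = 4). Epha4 followed at 1037 ± 92.8, far below Rtn4. Lrrc4c and Rtn4r came next with 828 ± 80.0 and 825 ± 123, and Slitrk1, Sema7a and Lrrc4b with 739.8 ± 95.8, 738 ± 44.2 and 687 ± 18.4. The ranges of mean ± SD overlapped between each gene from Lrrc4c to Lrrc4b and the next in this order, but not between Epha4 and Lrrc4c. The range of Epha4 did overlap that of Rtn4r, which had the larger SD. At the other end Ephb2 at 27.6 ± 3.12, Epha10 at 26.2 ± 7.59 and Epha8 at 20.6 ± 4.81 per kb also overlapped each with the next. Epha8 reached the filter on low values only through bigenic mice, so its low level in the nontransgenic mice and its rise are not separate findings.

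The loci of the called members differed in length. The span from first to last annotated exon (GENCODE vM1, mm9) had a median of 154 kb in the 17 members called lower, 22.8 kb in the 13 called higher and 80.7 kb in the 44 others. Over all genes tested with a position the medians were 34.2, 27.1 and 27.6 kb. Below 50 kb 9 of 36 members were higher and 6 lower, from 50 to 200 kb 2 and 6 of 19, and from 200 kb up 2 and 5 of 19. As shares of the members in these bins this was 25%, 10.5% and 10.5% higher and 16.7%, 31.6% and 26.3% lower. The shares among all genes tested were 21.3%, 19.9% and 14.7% higher and 13.6%, 16.8% and 27.3% lower. From 200 kb up the share of members called lower was near that of all genes tested. The members called lower had a longer median span than those called higher, as did all genes tested, with a smaller difference. Exceptions among the members included Robo3 at 17.5 kb and Lrrc4c, which was higher, at 1313 kb. No test was made on the members, and genes of one family share ancestry.

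**Figure D4:**
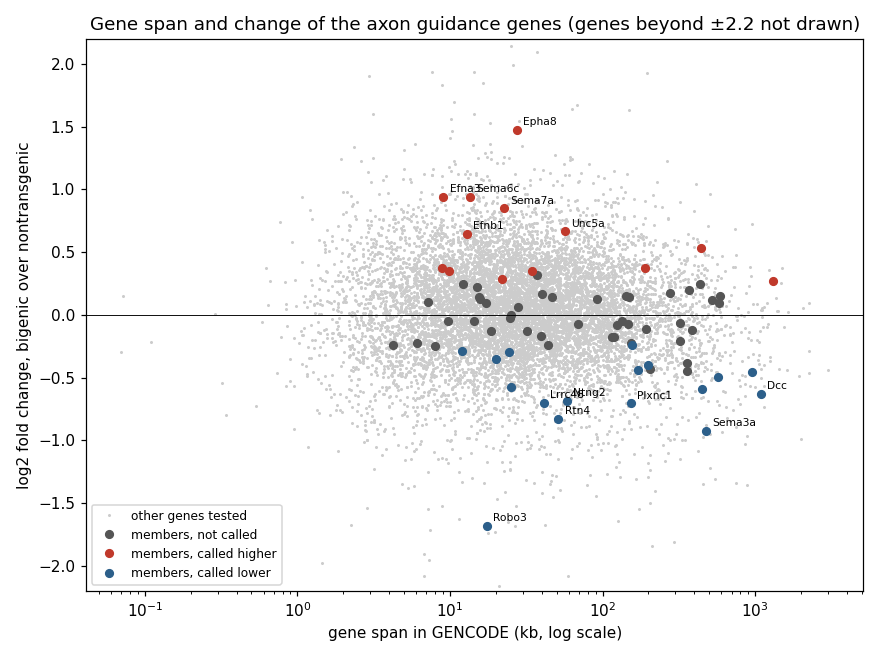
Log2 fold change (y axis) against the gene span in kb on a log axis for the 74 members (large points, red higher, blue lower, dark grey not called) and the other genes tested (small points). Members called lower have a median span of 154 kb and those called higher 22.8 kb. Among all genes tested these medians are 34.2 and 27.1 kb.

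TDP-43 binds RNA with repeats of GU, which are GT in the genome, so the sense strand of each gene was searched for runs of at least 6 GT or TG units, 12 bases. Such a run lay within the span of 61 of 74 members (82.4%) and of 74.3% of all genes tested. Per 100 kb of span the members held 10.8 and all genes tested 10.9. Within exons a run was found in 18 of 74 members (24.3%) and in 11.6% of all genes tested, whose median exon length of 4.18 kb was below the members' 6.17 kb. The members with one were 2 of the 13 called higher, 1 of the 17 called lower and 15 of the 44 others. Robo3, Rtn4 and Efna3 held no such run in their span. The 3 called guidance genes with a run in an exon are shown, since these alone of the 30 called members have one in an annotated exon. Whether the counted transcript holds that exon was not tested. Each line gives 8 bases before the run in lower case and then the run in capitals, cut at 30 bases, 5′ to 3′ on the sense strand of the mm9 genome.
Plxna2, chr1:196630874-196630903, + strand, start of a run of 39 bases in an exon of a transcript without annotated coding sequence: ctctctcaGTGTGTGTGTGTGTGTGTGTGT
Plxna4, chr6:32098133-32098162, - strand, start of a run of 31 bases in an untranslated exon: acagaagcTGTGTGTGTGTGTGTGTGTGTG
Unc5a, chr13:55106609-55106638, + strand, a run of 15 bases in an exon that is coding or untranslated depending on the transcript: agcccatcTGTGTGTGTGTGTGTatgtgtg
The parts named are those that the run itself overlaps in any annotated transcript, and not the whole exon. For Plxna4 this was an untranslated part and for Unc5a these were coding and untranslated parts. Whether the part in Unc5a depends on the transcript, as its line is worded, or the run crosses a boundary was not determined. Plxna2 was lower and Plxna4 and Unc5a higher. A run of these letters is a description of the gene and not a binding site, and binding was not measured.

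Genes that act with or after the guidance receptors were counted from a list of 71, of which 67 were tested, Mical3 with 2 transcripts. Of these 68 transcripts 6 were higher and 14 lower (8.82% and 20.6%, against 20.5% and 15.4% of all genes tested), and 31 had an unadjusted p below 0.05 (all genes tested, 46.7%). The falls took in Pak1, a kinase that acts on the actin cytoskeleton, with means of 5556 ± 311 in the bigenic and 11999.8 ± 807 in the nontransgenic mice (SD, n = 4 each), at -1.11 and an adjusted p of 1.98e-05 by limma. Cdk5r1, the activator of Cdk5, was at -0.82 and Sdc2, a heparan sulfate proteoglycan, at -0.80, both lower. The cell adhesion molecules of the L1 family, co-receptors of guidance cues, went both ways. L1cam rose, from 2629.8 ± 190.1 to 4694 ± 808, a log2 fold change of 0.82 with a limma adjusted p of 0.000665, while Chl1 and Nrcam were lower at -0.71 and -0.32. The other rises were in Srgap3, which acts after Robos, Mical3 (1 of its transcripts, the other being at 0.50 with an adjusted p of 0.081), the tyrosine kinases Abl1 and Abl2, and Trio, a guanine nucleotide exchange factor, between 0.26 and 0.46.

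Markers of the cell types in the tissue were counted in the same way. Of all genes tested 35.9% were called, 20.5% higher and 15.4% lower. The share called was below this in the interneuron, oligodendrocyte, endothelial, precursor and meningeal lists. Of 8 markers of excitatory neurons 1 was higher and 3 lower, with a summed level of 44505 to 63683 normalized counts in the bigenic and 73770 to 80993 in the nontransgenic mice. Astrocyte markers were lower in 4 of 8 (119909 to 141704 against 149209 to 160535), interneuron markers in 2 of 8 (16381 to 17009 against 17795 to 19671) and microglial markers in 5 of 7 (3833 to 4757 against 5051 to 5902). Oligodendrocyte markers had 1 of 8 higher and 0 lower by limma (2 and 0 at an unadjusted p below 0.05), with overlapping sums of 65228 to 85916 and 65240 to 81841. Of 9 choroid plexus markers 4 were tested and all 4 were higher, with sums of 8385 to 19459 in the bigenic and 363 to 1203 in the nontransgenic mice. At such low nontransgenic sums these markers could pass the filter on low values through bigenic mice alone. Being tested and being higher are therefore not separate findings for them. The endothelial markers had 1 of 7 lower, at 4054 to 4454 against 4153 to 5266, while none of the 5 precursor markers (4851 to 6438 against 5595 to 6989) or the 3 meningeal markers tested (1391 to 1702 against 1255 to 1842) was called by limma, and 1 precursor marker was lower at an unadjusted p below 0.05. What part these shifts have in the values of the members was not tested.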

How the data were processed

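RNA-seq libraries had been made from right cortex, 1 library a mouse and 4 mice a group. The authors counted reads per UCSC transcript on mm9 and deposited 1 table of counts normalized by a size factor per mouse and rounded, treated here as a score and not as raw counts. Cutadapt, Bowtie 0.12.7, bedtools and DESeq2 are named in the submitters' processing notes. The use of strand in counting is not given in the sources used here. A table of the study's own fold changes and p-values was not used, except for its list of genes in 1 alternative. The headings of the columns name the group of each mouse, and all 8 were used.

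Genes with at least 10 RPM in 1 or more mice were tested with limma 3.58.1 in R 4.3.3 (lmFit, eBayes with a trend) on log2(value + 1), without covariates, with Benjamini-Hochberg adjustment over 10588 genes and a threshold of 0.05. Depth was estimated from the size of 1 read in the low values, on whose steps 99.6% to 100% of the values lay. On simulated data for these groups with 200 of 10588 genes doubled or halved, 174 were called, and 12 unchanged genes. Each gene had the same spread in every simulated mouse. These figures therefore do not cover smaller changes, a larger share of changed genes or a deviating library such as bg277. Positions, exon overlaps and sequence came from GENCODE vM1 on NCBIM37 (mm9), matched by symbol for 97.3% of the genes. Members and lists were chosen with earlier results of these data known. Values in every mouse are given for called members among the 15 largest rises or falls, and the best measured member of each family is named. The genes singled out from the list of signalling genes, and the members named for a call in a fit that left out a mouse, were chosen after their values were seen. Alternatives changed the threshold, pseudocount, filter, scaling, weights and mice. The fits with Xist or with only the libraries that held Y-linked transcripts were added after seeing the data.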

Additional observations from a re-analysis of the deposited data

Results flagged for a closer look

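The value of 1 mouse stood far from the other 3 of its group, by Dixon's criterion, in 6 of the 72 groups of 4 looked at (the named members, each group apart). Chance alone gives about 1 in 20. For bg277 this held in 3 members. Unc5a had 2327 normalized counts there against 1286 to 1371 in the other bigenic mice, Lrrc47 had 1911 against 1460 to 1497, and Slitrk3 had 2107 against 2851 to 2957. In bg254 Lrrc48 had 274 normalized counts against 172 to 177 in the other bigenic mice. In nt250 Epha8 had 131 against 82 to 88 and Ntn1 had 274 against 194 to 203 in the other nontransgenic mice.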

How the results depend on the processing

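No paired analysis was possible because the columns carry no replicate number of the labels, and no pairing of mice is described. The study's methods give separate bigenic and nontransgenic mice, and a shared replicate number would not by itself show a pair. At an adjusted p-value below 0.01, 6 members were higher and 9 lower, with 7 of the signalling genes lower and 1195 genes of all higher and 862 lower. Array weights, which gave bg277 a weight of 0.084, raised the members called to 24 higher and 24 lower, the signalling genes to 21 and 21, and all genes to 3611 higher and 2844 lower, with a median of the members of 0.011. In the 3 bigenic and 2 nontransgenic libraries with Y-linked transcripts, 3 members were higher and 2 lower, 2 signalling genes were higher and 2 lower, and 379 and 296 of all genes were. With 1 mouse left out, the members called higher ranged from 6 (without nt250 or nt255; 8 without bg286) to 15, those called lower from 12 to 20, their median from -0.091 (without bg286) to -0.0047 (without bg277), the signalling genes called higher from 5 to 10 (the latter without bg277) and lower from 13 to 17, and all genes from 1512 to 2683 higher and 1113 to 2134 lower. Of the 26 called members with values in every mouse, 0 changed direction in any of the 20 alternatives, and 5 (Epha8, Plxna4, Robo3, Rtn4 and Sema7a) were called in all that kept them. Nrp1 and Ntn1, which were not called, turned from negative to 0.052 for Nrp1 with array weights. With 1 mouse left out Nrp1 ranged from -0.146 (without nt250) to 0.0033 (without bg254) and Ntn1 from -0.231 (without bg254) to 0.0077 (without nt250). Leaving out the filter on low values could add no member, since genes below the study's threshold carry no symbol. With no filter on low values 9 members were higher and 15 lower, with Efnb1 (adjusted p 0.0568), Ephb2 (0.0512), Lrrc4c (0.0664) and Slitrk3 (0.0552) no longer called. Slitrk3 was also not called after rescaling to the same total (0.0601) or quantile normalization (0.104), nor Lrrc4c after the latter (0.0551), nor Efnb1 with voom (0.0505). The cause of these shifts was not tested.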
